A study of Mus musculus with 2 samples.

Results

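The cells described here are regulatory T (Treg) cells in which the UMIs of 3 genes, Ly6c1, Igfbp4 and Dapl1, summed to 3 or more. A UMI is a molecular barcode that stands for 1 captured mRNA molecule. There were 757 such cells, called marked cells below, among 7024 cells in all. They were chosen by their measured UMIs of these 3 genes, so the levels of the 3 genes describe the choice and are no result. The marked cells came from 2 libraries of GFP+ Treg cells sorted in 2 rounds from the spleen and lymph nodes of male C57BL/6 mice. Control mice were Foxp3DTR-GFP/y Cd4creERT2, in which a functional Foxp3 allele carries GFP and the diphtheria toxin receptor, and cells of 5 mice were pooled into 1 library. Rescued mice were Foxp3LSL/y Cd4creERT2, in which a Thy1.1-STOP cassette between loxP sites blocks Foxp3 until Cre removes it and leaves a Foxp3-GFP allele, and cells of 4 mice were pooled into 1 library. Both genotypes carried the R26Tom reporter, which turns on tdTomato after Cre acts, and both were given 4-hydroxytamoxifen once, at postnatal day 14, to activate the Cre-ERT2 made under Cd4. The label gives an age of 7 months for both, and the study's methods count the 7 months from the tamoxifen dose. Males with Foxp3LSL and no Cre develop fatal multi-organ inflammation, so the groups differ in disease history as well as in allele.

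Treg cells restrain immune responses and depend on the transcription factor Foxp3. In lymphoid organs they range from resting cells, which recirculate through blood and lymph nodes and keep factors such as Klf2, Satb1, Lef1 and Tcf7, to activated effector cells, which carry Icos, high Ctla4, Maf and receptors for entry into tissues. Ly6c1 encodes one of the GPI-anchored surface proteins detected as Ly6C, Igfbp4 encodes a secreted protein that binds insulin-like growth factors, and Dapl1 encodes a small protein found in naive and memory T cells. These 3 transcripts are known from resting T cells, but holding them does not by itself show that a cell is resting.

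With 1 library in each group, no comparison below has a replicate check and none was tested. The UMIs of all cells in a population were added up and expressed as CPM, the UMIs of a gene per 1000000 UMIs of that population, and a log2 ratio compares the CPM of 2 populations. The 95% intervals, exact Poisson for a CPM, exact binomial for a share and exact conditional for a ratio, cover counting error only, and not the spread between mice. Those of a CPM or a ratio also leave out the spread between cells, and are too narrow where few cells hold most of the UMIs. A genotype and its library cannot be told apart. The median marked cell held 4028 UMIs in control and 4941 in rescued, against 3658 and 3800 in the other cells. The median share of mitochondrial UMIs ranged from 9.04% to 9.70% over the 4 populations. The libraries shared 3 cell barcodes, none of them on a marked cell.

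Marked cells made up 17.6% of control cells (639 of 3634, 95% interval 16.4 to 18.9) and 3.48% of rescued cells (118 of 3390, 2.89 to 4.15), a 5.05-fold difference in share. The sum of the 3 genes had a median of 5 UMIs in the marked cells of both libraries and reached 31 in control and 39 in rescued. At the threshold, 185 control and 34 rescued cells sat just inside with a sum of 3, and 213 control and 41 rescued cells just outside with a sum of 2. When each cell was thinned to 1000 UMIs and marked by 1 marker UMI, the shares were 18.3% and 3.66%. Just inside and just outside the threshold, Klf2 was at 1437 and 1274 CPM and Ikzf2 at 621 and 716 CPM in control. In rescued Klf2 was at 844 and 956 CPM and S100a6 at 1407 and 706 CPM.

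**Figure D1:**
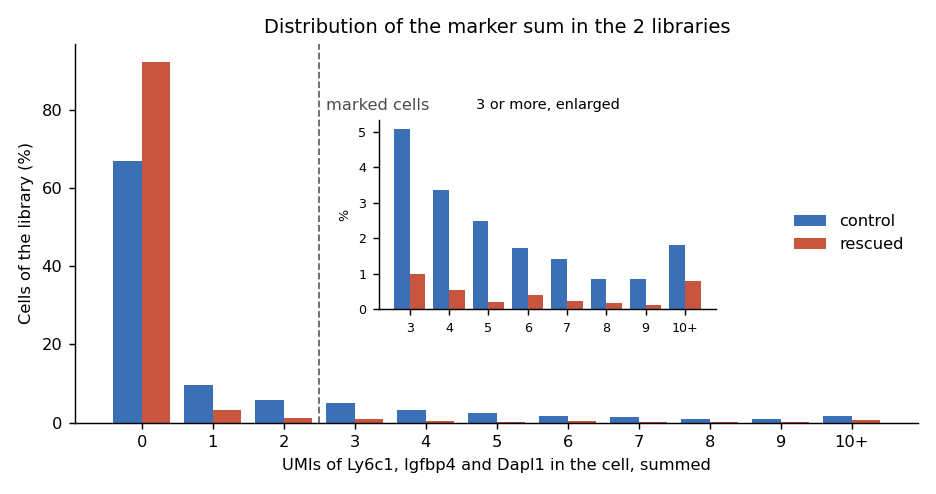
Share of the cells of each library (y axis, %) by the summed UMIs of Ly6c1, Igfbp4 and Dapl1 in the cell (x axis), for control (blue) and rescued (red), with the marked classes enlarged in the inset. In control 66.9% of the cells had a sum of 0 and in rescued 92.2%, and each class from 1 upwards held a larger share of the control library.

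The makeup of the class by marker gene describes the choice of cells. Ly6c1 was found in 490 of the 639 control marked cells and 78 of the 118 rescued ones, and Igfbp4 in 438 and 80. Dapl1 was the rarer gene in control, in 94 marked cells (14.7%), and was found in 39 rescued marked cells (33.1%). Cells with both Ly6c1 and Igfbp4 but no Dapl1 made up 43.5% of the marked cells in control (39.6 to 47.5) and 30.5% in rescued (22.4 to 39.7). Cells marked by Ly6c1 alone made up 24.7% and 21.2%. Ly6c1 lies on chromosome 15 (75044018 to 75048830, minus strand, GRCm38), near Ly6c2 (75108158 to 75111970), and the last 300 bases of their longest coding transcripts align at 93.5% identity. Whether reads of the pair were assigned to the right gene was not tested. Ly6c2 itself had 21 UMIs in control and 17 in rescued marked cells, at 7.38 and 26.8 CPM. Igfbp4 lies on chromosome 11 (99041244 to 99054392, plus strand) and Dapl1 on chromosome 2 (59484653 to 59505020, plus strand).

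The first comparison set the marked cells against the other cells of their own library. The gene lists were chosen with earlier results of these data known, so their counts and medians are a description and no independent evidence. In both libraries every activation gene compared was lower in marked cells, and part of the quiescence and recirculation genes were higher. Tissue genes were mostly lower in control, and 7 of 14 were in rescued. In control, 190 of 8595 genes compared (2.21%) were more than 1.5-fold higher in marked cells and 788 (9.17%) more than 1.5-fold lower. In rescued, 145 of 5002 (2.9%) were higher and 495 (9.9%) lower. The limit for comparing a gene used its UMIs in both classes together, which came mostly from the other cells. Genes low in marked cells passed it more readily than genes high in them, so these counts and those of the lists lean towards lower. The median log2 ratio over all genes compared was −0.07 in control and −0.05 in rescued.

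Of 16 quiescence and stemness factors, all compared in control, 6 were over 1.5-fold higher and 0 lower in marked cells, with a list median of 0.31. In rescued 7 of the 15 compared were higher and 0 lower, with a median of 0.47. Satb1, a chromatin organiser of T cells, reached 449 CPM in control marked cells against 184 in other cells, a log2 ratio of 1.29 (1.19 to 1.38), and 265 against 96.3 CPM in rescued, a ratio of 1.46 (1.22 to 1.69). Klf2, which drives the recirculation program, reached 1386 against 723 CPM in control (0.94, 0.88 to 0.99) and 1060 against 370 in rescued (1.52, 1.40 to 1.63). The control marked cells were thus highest for both genes and the rescued other cells lowest. Bcl2, the survival factor, was at 869 against 535 CPM in control and 664 against 285 CPM in rescued. The Wnt pathway factor Lef1 had a log2 ratio of 0.79 (0.68 to 0.90) in control and 0.93 (0.69 to 1.17) in rescued. Its relative Tcf7 was less marked, with 271 against 233 CPM in control (0.21, 0.10 to 0.33) and 139 against 88.6 CPM in rescued (0.65, 0.32 to 0.96). Foxp1, a repressor that keeps T cells quiescent, had a ratio of 0.33 (0.25 to 0.41) in control and 1.02 (0.84 to 1.2) in rescued. Il7r, the interleukin 7 receptor chain common in naive conventional T cells, went the other way in both libraries, at −0.40 (−0.52 to −0.29) and −0.48 (−0.70 to −0.28).

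Genes of lymph node homing and exit were split. Of 14 listed genes 13 were compared in each library, and 6 were higher and 2 lower in both. S1pr1, the receptor that lets lymphocytes leave lymph nodes, reached 337 against 148 CPM in control (1.18, 1.07 to 1.29) and 257 against 85.8 CPM in rescued (1.58, 1.34 to 1.82). Ccr7, which brings cells into lymph nodes, reached 336 against 190 CPM in control (0.82, 0.71 to 0.93) and 304 against 79.2 CPM in rescued (1.94, 1.71 to 2.16). Rasgrp2, an activator of the adhesion switch Rap1, was at 1.09 (0.96 to 1.22) and 1.41 (1.09 to 1.72). The interleukin 6 receptor Il6ra, a cytokine receptor counted on the same list and not itself a homing gene, was at 0.60 (0.46 to 0.74) and 1.33 (1.09 to 1.56). The integrin chains Itgal and Itga4 were lower in the control marked cells, at −0.68 (−0.84 to −0.53) and −0.61 (−0.75 to −0.47). In rescued Itga4 was at −1.07 (−1.42 to −0.74) and the chemokine receptor Cxcr4 at −1.55 (−2.50 to −0.73), while Itgal, at −0.51 (−0.81 to −0.23), was within 1.5-fold.

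Every activation and effector gene that was compared was over 1.5-fold lower in marked cells, 20 of 20 in control with a median of −1.73 and 19 of 19 in rescued with a median of −1.52, from a list of 23. These genes reached the limit for comparison mostly through their UMIs in the other cells, which favours lower ones. The summed level of all 23 genes, without that limit, was 1711 CPM in control marked cells against 4204 CPM in the other cells. In rescued it was 2887 against 6827 CPM. Icos, a costimulatory receptor of effector Treg cells, was at 83.6 against 290 CPM in control (−1.79, −1.99 to −1.61) and 200 against 649 CPM in rescued (−1.70, −1.96 to −1.44). The inhibitory receptor Ctla4 was at 130 against 299 CPM in control and 252 against 499 CPM in rescued. The transcription factor Maf was at 86.1 against 405 CPM in control (−2.23, −2.42 to −2.05) and 197 against 652 CPM in rescued (−1.73, −1.99 to −1.47). Klrg1, a receptor of terminally differentiated Treg cells, had 4 UMIs in control marked cells and 380 in the others. The checkpoint receptor Lag3 had 21 and 1012 UMIs. Icos and Ctla4 in rescued marked cells stood between the control marked and the rescued other cells, and Maf did so as well.

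Tissue and repair genes were lower above all in control, where 14 of 17 compared were lower, 0 were higher and the median was −2.07. In rescued 7 of 14 were lower, 1 was higher and the median was −0.57. S100a6, a calcium-binding protein of effector and memory cells, was at 31.6 against 395 CPM in control (−3.65, −3.96 to −3.34) but at 478 against 695 CPM in rescued (−0.54, −0.71 to −0.38). The rescued level came mostly from 12 cells with 3 or more S100a6 UMIs, and the other 106 rescued marked cells, set apart by this same gene, held it at 40.2 CPM. Its relative S100a4 had ratios of −3.01 (−3.25 to −2.79) and −1.14 (−1.37 to −0.93). Penk, the precursor of enkephalins, had 15 UMIs in control and 5 in rescued marked cells, with ratios of −3.78 (−4.62 to −3.05) and −3.09 (−4.72 to −1.87). Crip1, a LIM domain protein listed with these genes, was higher in marked cells, at 0.57 (0.52 to 0.63) and 0.66 (0.56 to 0.76). In rescued Crip1 was at 3069 CPM in the same 12 cells and 1145 CPM in the other 106 marked cells, against 891 CPM in the other rescued cells.

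**Figure D2:**
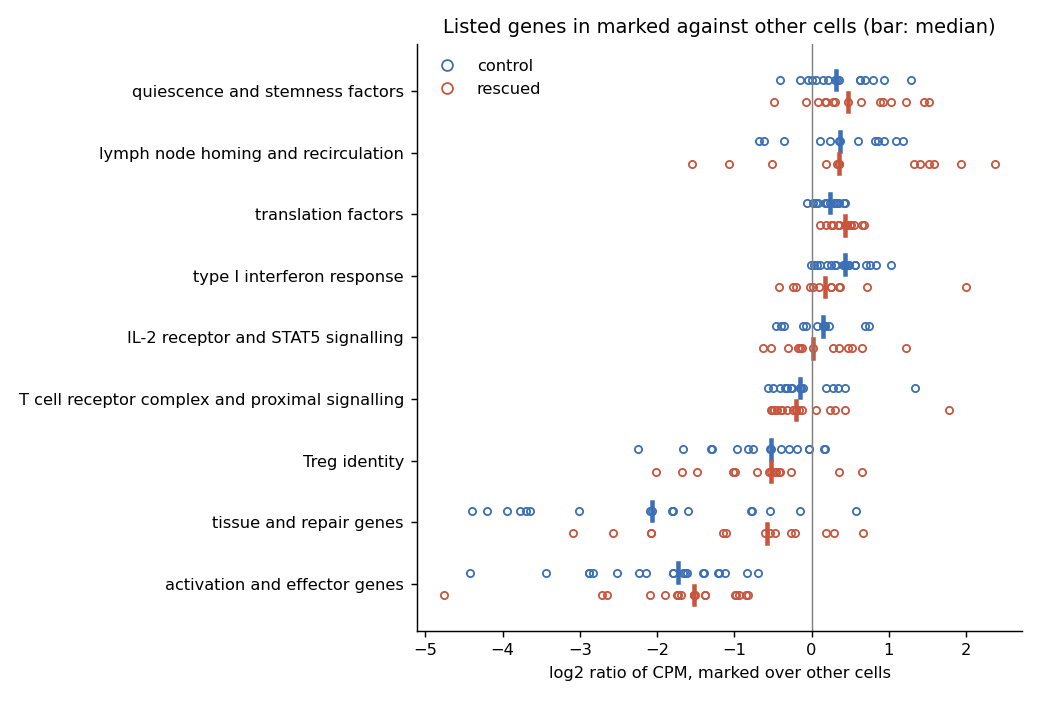
Log2 ratio of CPM, marked over other cells (x axis), of each compared gene of 9 gene lists (rows), for control (blue) and rescued (red), with a bar at each list's median. All activation and effector genes sit left of 0, at medians of −1.73 and −1.52, and the quiescence factors sit mostly right of it, at 0.31 and 0.47.

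The marked cells kept the Treg label by some identity genes and had less of others. Foxp3 was at 68.5 CPM in control marked cells against 83.7 CPM in the others (−0.29, −0.52 to −0.07) and at 356 against 473 CPM in rescued (−0.41, −0.61 to −0.22). Il2ra, the high-affinity chain of the interleukin 2 receptor, was higher in marked cells, at 306 against 274 CPM in control (0.16, 0.05 to 0.27) and 454 against 356 CPM in rescued (0.35, 0.17 to 0.52). Ikzf2, which encodes the Treg factor Helios, was lower in both, at 576 against 1423 CPM in control (−1.30, −1.38 to −1.23) and 609 against 1706 CPM in rescued (−1.49, −1.64 to −1.34). Izumo1r, Nrp1 and Nt5e were also lower, with control ratios of −0.76, −0.82 and −1.28. Of 16 identity genes 7 of 16 compared were over 1.5-fold lower and 0 higher in control, and 6 of 15 lower and 1 higher in rescued, with medians of −0.53 in each. Set against the name of resting Treg cells, the marked cells thus held Foxp3 and Il2ra transcripts, more of the quiescence factors and less of the activation genes. Of 5 genes that the study named in persisting Treg cells, chosen there on these samples and so no independent evidence, 0 were higher and 1, Epcam, was lower in each library.

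The tdTomato transcript, which is made after Cre has acted in the cell or its forebears, was lower in marked cells. It was at 263 against 418 CPM in control (−0.67, −0.79 to −0.56) and at 378 against 675 CPM in rescued (−0.84, −1.03 to −0.65). In cells thinned to 2000 UMIs, 36.4% of control marked cells held a tdTomato UMI (32.6 to 40.3) against 46.5% of other control cells (44.7 to 48.3). In rescued the shares were 33.1% (24.7 to 42.3) and 43.7% (41.9 to 45.4). Unthinned they were 54.6% and 64.7% in control and 47.5% and 56.2% in rescued, at the median depths given above. In both libraries the marked cells held the smaller share. No cell type that should lack the reporter was sorted, so its background from free RNA was not measured. By flow cytometry at the same time after tamoxifen, the study found most rescued Treg cells but only a minority of control ones positive for tdTomato. The shares with a UMI ran in the reverse order, higher in control in both classes, although the CPM was higher in rescued. These shares are therefore no measure of Cre-labelled cells, and whether marked cells were less often labelled was not tested.

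Genes of T cell receptor signalling stayed mostly within 1.5-fold, with 1 of 17 higher and 0 lower in each library. The exception was Txk, a Tec-family kinase of resting T cells, at 187 against 73.7 CPM in control (1.34, 1.19 to 1.5) and 166 against 48.3 CPM in rescued (1.78, 1.47 to 2.07). Nr4a1, an immediate early gene of receptor signalling, was at −1.54 (−2.17 to −0.96) in control and had 3 UMIs in rescued marked cells. Of the immediate early genes, 7 of 16 were lower in control and 3 of 10 in rescued, with 0 higher in either, while Myc was at 0.56 in both. The IL-2 receptor and STAT5 list had 2 of 13 genes higher and 0 lower in control and 2 higher and 1 lower in rescued, with Bcl2 among the higher ones in both. Socs3, a feedback inhibitor of cytokine signalling, was at 0.74 (0.61 to 0.87) and 0.52 (0.31 to 0.72).

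Translation factors were mostly above 0, but within 1.5-fold, with a median of 0.24 in control, where 0 of 15 passed 1.5-fold, and 0.44 in rescued, where 2 of 15 did. Eef1a1, the elongation factor that delivers tRNAs, had ratios of 0.30 (0.28 to 0.31) and 0.46 (0.42 to 0.49). Type I interferon response genes were higher in control marked cells, with 4 of 19 past 1.5-fold and a median of 0.44. In rescued 2 of 12 were, with a median of 0.17. Gbp2, an interferon-induced GTPase, had one of the largest rescued ratios, at 470 against 117 CPM (2.0, 1.82 to 2.18), and 209 against 149 CPM in control (0.49, 0.35 to 0.62). Ifit1 was at 0.75 (0.57 to 0.94) in control and −0.02 (−0.51 to 0.44) in rescued. Among genes related to the marker Ly6c1, Ly6a was at 0.83 (0.75 to 0.90) in control and 0.22 (0.10 to 0.33) in rescued, and Ly6e stayed within 1.5-fold. The membrane protein Ms4a4c was the named gene with the highest control ratio, at 150 against 54.4 CPM (1.46, 1.29 to 1.64). In rescued it had 45 UMIs in marked cells, at 71.0 against 8.59 CPM. Its UMIs in both classes together fell below the limit for comparison, so it is not in the counts.

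The insulin-like growth factor genes around Igfbp4 were mostly too low to compare. The receptors Igf1r and Igf2r had control ratios of −0.34 (−0.53 to −0.16) and 0.04 (−0.13 to 0.21), and none of the 4 genes compared in control or the 2 in rescued passed 1.5-fold. None of the cell cycle genes compared was higher, but most of the 19 listed were too low to compare in rescued. Among those, Birc5 had 12 UMIs in rescued marked cells (18.9 against 6.31 CPM in other rescued cells). Ccnb2 had 9 UMIs there (14.2 against 6.71 CPM), while others, such as Ccnb1 with 0 UMIs, were not higher. The proliferation marker Mki67 had 8 UMIs in control marked cells, a ratio of −1.82 (−3.06 to −0.80), and 3 in rescued. Of the 12 cell cycle genes compared in control 4 were lower, and of the 6 in rescued 0. Glycolysis genes were within 1.5-fold for 11 of 13 in control and 9 of 11 in rescued. Of 7 thymic and recent emigrant genes compared in control, Cd55 was higher (1.07, 0.79 to 1.35) and 3 were lower, and all 4 compared in rescued were lower.

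Other named genes of the control comparison were Gpr146 (1.42), Atp1b1 (1.32), Galnt10 (1.16), Slc17a9 (1.12), 1700025G04Rik (1.12) and Als2cl (1.10) among the higher ones. Among the lower ones Nkg7, a granule protein of cytotoxic cells, had 2 UMIs in marked cells and 682 in the others (−6.27, −9.32 to −4.41). It was followed by 6330403K07Rik (−4.38), Ccr2 (−3.70), Gpm6b (−3.64), Epcam (−3.57), Hspb1 (−3.27), Cxcl10 (−3.19) and Bcl2a1d (−3.18). In rescued the further named higher genes were Stk38 (1.16), Gm12840 (1.06), Rexo2 (1.05) and Arl4c (1.04). The lowest was Ccr9, the gut-homing chemokine receptor, with 4 UMIs in marked and 1701 in other cells (−4.18, −6.06 to −2.82). In control its ratio was −1.13 (−1.67 to −0.63), and the other control cells held it at 27.7 CPM against 114 CPM in the other rescued cells. The chemokine Ccl5 (−3.76), the activation marker Cd83 (−3.68), Epcam (−2.63), Zcchc18 (−2.62), Rora (−2.57), Nav2 (−2.54), Tbc1d4 (−2.27), Fabp5 (−2.17), Tnfrsf9 (−2.09), Tnfrsf1b (−2.08) and Serpina3g (−1.98) were lower too. All 12 of these rescued genes were also over 1.5-fold lower in control marked cells, for instance Cd83 at −2.71 and Serpina3g at −2.59.

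**Figure D3:**
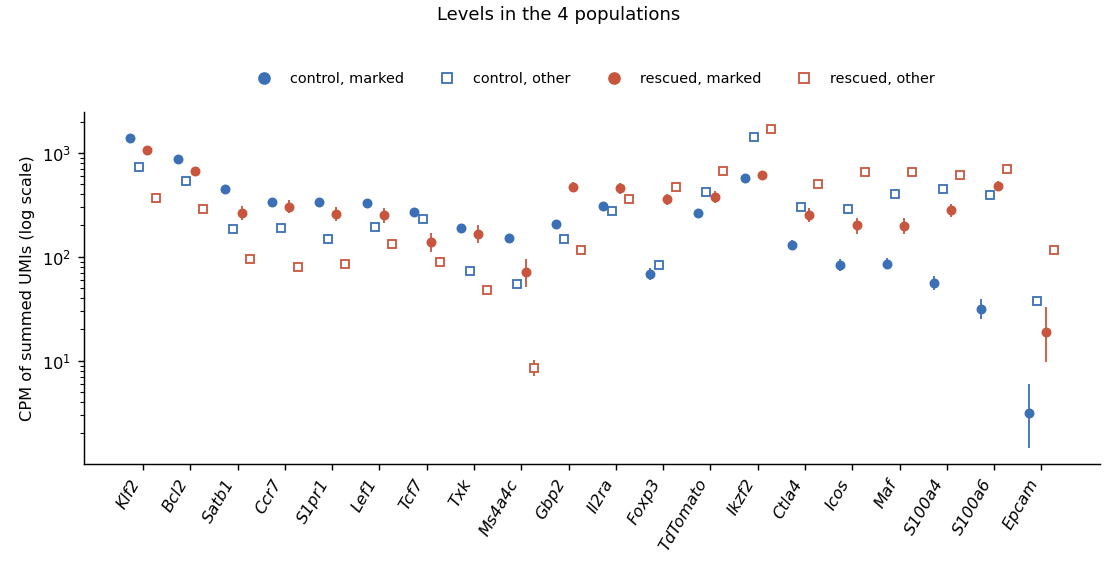
CPM of summed UMIs (y axis, log scale) of 20 genes in marked (filled circles) and other cells (open squares) of control (blue) and rescued (red), with exact 95% Poisson intervals. From Klf2 to Il2ra the marked cells of each library lie above its other cells, and from Foxp3 to Epcam below them. Foxp3 separates the libraries, at 68.5 and 83.7 CPM in control against 356 and 473 CPM in rescued.

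The ratios of marked over other cells were set side by side for the 2 libraries. Over 4913 genes compared in both, the log2 ratios had a Pearson correlation of 0.72 and a Spearman correlation of 0.57, given as a description across genes, which share libraries and are not independent. Of 53 genes that passed 1.5-fold upwards in control among these, 42 (79.2%) did so in rescued. Of 326 that passed downwards, 235 (72.1%) did. A search for the 15 nearest neighbours in 40 principal components, with the 3 marker genes left out, described how marked cells lay among the rest. Marked control cells had 50.1% marked cells among their neighbours, against 14.8% for the other control cells. Marked rescued cells had 40.6%, against 2.82% for the other rescued cells. Of the neighbours of marked rescued cells, 27.7% were control marked cells and 12.9% rescued marked cells, where these classes held 639 and 118 of all 7024 cells. Of the neighbours of marked control cells, 3.13% were rescued marked cells and 93% were control cells.

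Levels were also followed across classes of the marker sum. In control, Satb1 was at 141 CPM in cells with no marker UMI, 339 with 1, 403 with 2, and 442, 471 and 393 with 3 to 4, 5 to 9 and 10 or more. Klf2 was higher in each further class, from 621 to 1451 CPM. In rescued, Satb1 was at 94.0 CPM with no marker UMI, and 209, 268 and 357 CPM in the 3 marked classes. Klf2 in rescued was at 338 CPM with no marker UMI, 964, 956 and 924 CPM with 1, 2 and 3 to 4, and 1143 and 1197 CPM above that. Tcf7 in rescued was at 151 CPM with 2 marker UMIs, 85.0 CPM with 3 to 4 and 166 CPM with 5 to 9, so not every gene was ordered by the sum. Ikzf2 was lower in each further class, from 1567 to 467 CPM in control and from 1738 to 375 CPM in rescued. Cells with 1 or 2 marker UMIs are counted among the other cells here, and their Ikzf2 and Satb1 levels in rescued lay between those of the marked cells and the cells with none.

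**Figure D4:**
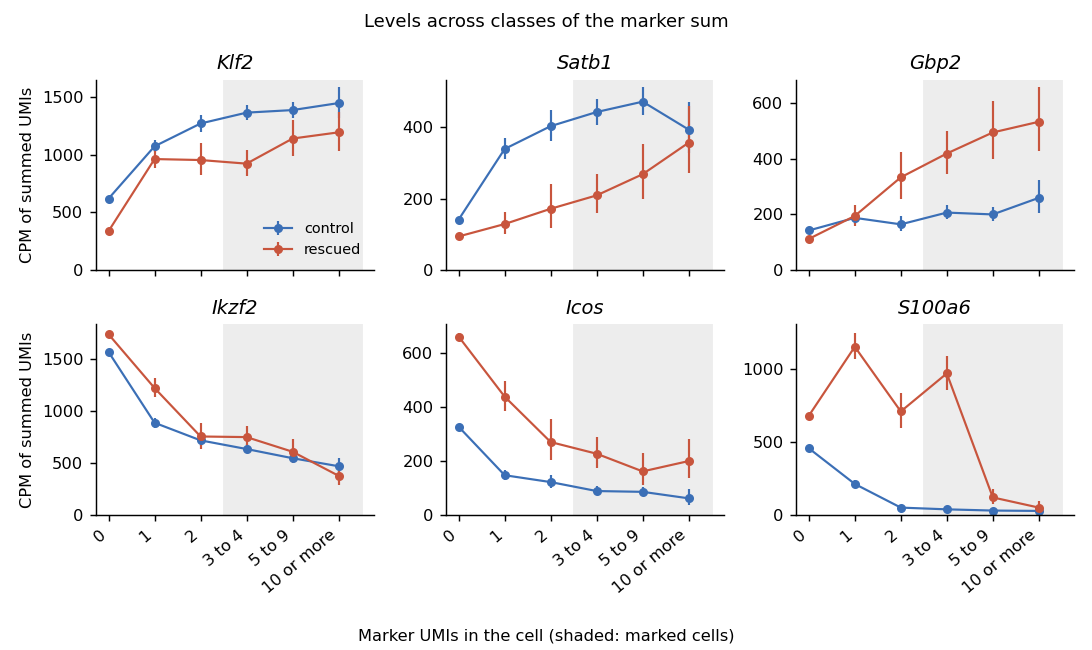
CPM of summed UMIs (y axes) of 6 genes in cells grouped by their marker UMIs (x axis; the marked classes are shaded), for control (blue) and rescued (red), with exact 95% Poisson intervals. Klf2 and Satb1 are higher and Ikzf2 and Icos lower in cells with marker UMIs than in cells with none, and S100a6 in rescued is at 967 CPM in the 3 to 4 class and 48.3 CPM in the 10 or more class.

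The second comparison set the rescued marked cells against the control marked cells. Of the genes compared, 5 of 8 activation genes and 5 of 8 tissue and repair genes were over 1.5-fold higher in rescued marked cells, and 12 of 16 quiescence factors were within 1.5-fold. Of 4746 genes compared, 160 (3.37%) were more than 1.5-fold higher in rescued and 183 (3.86%) lower, with a median of 0.02 over all. The ratio of rescued over control in the other cells of the same 2 libraries is given beside most values, as the second number.

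The activation and effector list had a median of 0.71 in marked cells, with 0 of 8 lower, and in the other cells 13 of 23 were higher with a median of 0.67. These 2 medians cover different numbers of genes and are not a like comparison. With a marker sum of 5 or more the median in marked cells was 0.33. The summed level of the list in rescued was 3797 CPM in cells with 3 to 4 marker UMIs and 2151 CPM in those with 5 to 9, against 1728 and 1759 CPM in control. Icos had a ratio of 1.26 (0.94 to 1.58) in marked cells and 1.16 in other cells. Maf had 1.2 (0.87 to 1.51) and 0.69, Ctla4 0.96 (0.68 to 1.23) and 0.74, and Cd44 0.73 (0.18 to 1.26) and 0.45. Of the 16 quiescence factors 4 were lower and 0 higher, with a median of −0.36, against −0.52 in other cells. Tcf7 was at −0.96 (−1.30 to −0.65) and −1.40, Tsc22d3, a glucocorticoid-induced regulator, at −0.78 (−1.02 to −0.54) and −1.04, Satb1 at −0.76 (−1.0 to −0.53) and −0.94, and Klf2 at −0.39 (−0.51 to −0.27) and −0.97. For Ccr7 the interval in marked cells included 0 (−0.14, −0.37 to 0.08), where the other cells had −1.26.

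Foxp3 was higher in rescued marked cells, at 356 against 68.5 CPM, a ratio of 2.38 (2.10 to 2.66), and the other cells had 2.5. The Foxp3 alleles of the groups are engineered differently, so a difference in allele and one in expression cannot be told apart. Ikzf2 was at 0.08 (−0.09 to 0.24) in marked and 0.26 in other cells, and Il2ra at 0.57 (0.37 to 0.77) in marked and 0.38 in other cells. Of 12 identity genes compared 4 were higher and 1, Ikzf4, was lower (−0.59, −1.02 to −0.18, other cells −0.10). Lrrc32, the surface anchor of latent TGF-beta, was at 0.73 (0.38 to 1.07) and 0.97. The tdTomato transcript had a ratio of 0.52 (0.31 to 0.74) in marked cells and 0.69 in other cells.

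Among the named genes S100a6 had the highest ratio, with 303 UMIs in the 118 rescued marked cells and 90 in the 639 control ones, a ratio of 3.92 (3.57 to 4.27) where the other cells had 0.81. S100a4 was at 2.32 (2.0 to 2.64) against 0.45, and the integrin chain Itgb1 at 1.95 (1.63 to 2.28) against 0.19. Gbp2 was at 1.17 (0.96 to 1.37) where the other cells had −0.34. Gbp3 (1.29 and 0.55), S100a11 (1.27 and 0.74), Ahnak (1.24 and 0.71), Psen2 (0.99 and 0.48) and Lgals1 (0.97 and 0.45) completed the higher named genes. Lgals1, a galectin, was at −0.12 when the class was restricted to sums of 5 or more.

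Much of the S100a6 difference rested on few cells. In rescued, 10 cells held 90.8% of the S100a6 UMIs of the marked class, and 1 cell held 100 of them. In control, 10 marked cells held 63.3%. For S100a4 the 10 top cells held 94.9% in rescued and 91.2% in control. Cells with 3 or more S100a6 UMIs numbered 12 of 118 in rescued (10.2%, 5.37 to 17.1) and 8 of 639 in control (1.25%, 0.542 to 2.45), against 21.8% and 10.8% of the other cells. In the marked cells with fewer than 3, sets cut by this same gene, S100a6 was at 40.2 CPM in rescued and 13.5 CPM in control. Itgb1 was at 188 and 47.9 CPM in these sets, and Lgals1 at 226 and 206 CPM. At a depth thinned to 2000 UMIs, 14.4% of rescued and 3.31% of control marked cells held an S100a6 UMI, against 22.9% and 6.42% unthinned. The share in a cell type without S100a6 was not measured.

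Of these 12 rescued cells, 7 held Ly6c1 without the other marker genes. Among rescued marked cells with Ly6c1 but neither Igfbp4 nor Dapl1, 7 of 25 held 3 or more S100a6 UMIs (28%, 12.1 to 49.4), against 3 of 53 with Ly6c1 and another marker and 2 of 40 without Ly6c1. S100a6 was at 1957 CPM in the first of these sets (1730 to 2206), 76.7 CPM in the second and 57.1 CPM in the third. The rescued cells marked by Ly6c1 alone also held S100a4 at 1077 CPM, Lgals1 at 1193 CPM and Crip1 at 2350 CPM, above the 617, 510 and 891 CPM of the other rescued cells. Tcf7 was at 36.4 CPM (11.8 to 84.9) in them, against 178 and 152 CPM in the other sets. Their activation list summed to 3740 CPM, against 2305 and 3124 CPM in the other sets and 6827 CPM in the other rescued cells. Granzyme B (Gzmb) had 30 of its 31 UMIs among rescued marked cells in this set, and 2 cells held all 31. In control the same set of 158 cells held S100a6 at 54.0 CPM and Tcf7 at 247 CPM, and Gzmb had 0 UMIs, which allows up to 5.69 CPM. Of the 118 rescued marked cells, 106 held fewer than 3 S100a6 UMIs and had Klf2 at 1061 CPM, Tcf7 at 159 CPM and S100a4 at 51.1 CPM. The 12 with more S100a6 had Tcf7 at 11.5 CPM, from 1 UMI, and Klf2 at 1050 CPM. Their median depth was 6633 UMIs against 4835, and the part of depth was not tested. Without the cells of highest Scrublet doublet score, the S100a6 ratio between the marked classes was 4.93.

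**Figure D5:**
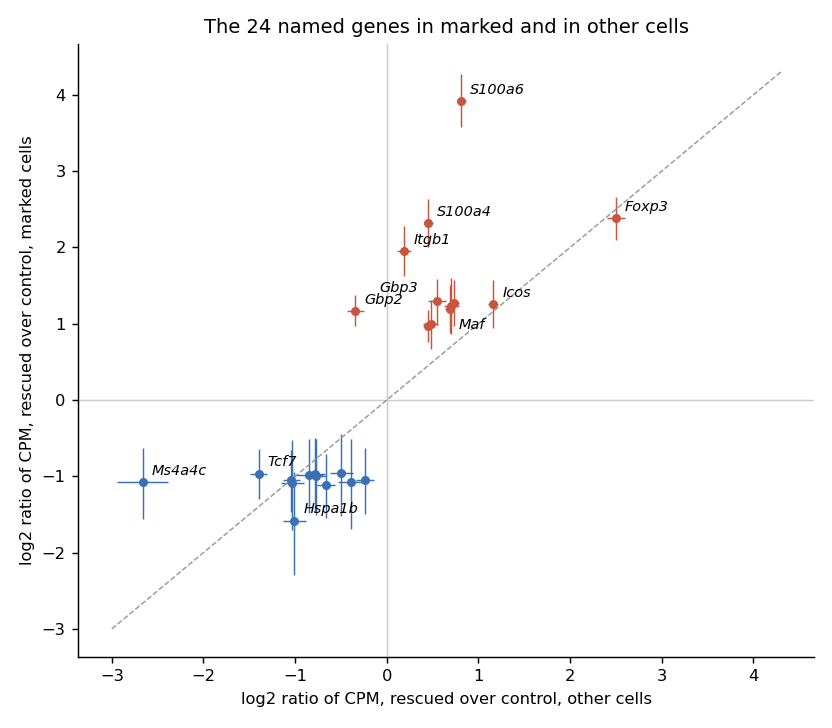
Log2 ratio of CPM, rescued over control, in marked cells (y axis) and in other cells (x axis) for the 24 genes named in the second comparison, higher in red and lower in blue, with exact 95% intervals and the line of equal ratios (dashed). S100a6, S100a4, Itgb1 and Gbp2 lie far above the line and Ms4a4c above it, at −1.08 in marked and −2.66 in other cells, while Foxp3 and Icos lie near it.

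Among the genes lower in rescued marked cells, heat shock genes stood out as a list. Of 7 dissociation stress genes compared 5 were over 1.5-fold lower and 0 higher, with a median of −0.87. Hspa1b, a stress-induced chaperone, was at −1.58 (−2.30 to −0.94) in marked and −1.01 in other cells, Dnajb1 at −1.11 (−1.54 to −0.71) and −0.66, and Hsph1 at −1.05 (−1.47 to −0.65) and −1.04. Hspa1b and Hspa1a are near-identical genes and reads can be shared. In the other cells 6 of the 9 genes compared were lower, with a median of −0.66, and the list was thus lower in rescued in both classes. The part of sample handling in the differences between the libraries was not tested.

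Interferon response genes were split within the marked class, with 1 of 15 higher in rescued and 4 lower. Irf7, a master factor of the response, was at −1.07 (−1.69 to −0.51) in marked and −0.39 in other cells, Ifit1 at −0.86 (−1.37 to −0.38) and −0.09, and Usp18 at −0.86 (−1.44 to −0.33) and −0.63. The higher gene was Gbp2. The remaining lower named genes were Tnfsf8 (−1.09 and −1.03), Ms4a4c (−1.08 and −2.66), Ago2 (−1.05 and −0.23), Igf2r (−0.99 and −0.78), Ndrg3 (−0.98 and −0.85), Chchd10 (−0.96 and −0.78) and Ramp1 (−0.96 and −0.50). Igf2r, which clears insulin-like growth factor 2, was the only growth factor axis gene past 1.5-fold of the 2 compared. The T cell receptor list had 0 of 17 genes past 1.5-fold in either direction and translation factors 0 of 15. The related genes Ms4a4b and Ms4a6b were at −0.05 and 0.06 in marked and −0.66 and −0.22 in other cells, while Ly6a was at 0.67 (0.54 to 0.80) in marked cells and 1.28 in other cells.

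Markers of B cells were lower in marked cells than in other cells of the same library, and those of other cell types were low or mixed. The B cell list summed to 596 CPM in control marked, 1158 in control other, 1052 in rescued marked and 2384 in rescued other cells, of which Ighm and Cd74 made up most, and the defining marker Ms4a1 was at 0 in the marked cells of both libraries and also in the other control cells, with 14 UMIs in the other rescued cells. Between the marked classes Ighm was higher in rescued by 0.77 (0.62 to 0.91) and Cd74 by 1.37 (0.97 to 1.75), and their part in the other differences was not tested. The list of CD8 T and NK cell genes summed to 66.0, 231, 41.0 and 269 CPM, with Cd8a and Klrk1 at 0 in marked cells of both libraries. The myeloid list summed to 159, 172, 131 and 207 CPM, nearly all of it Cst3, with Lyz2, Itgam, S100a9, C1qa and C1qb at 0 in marked cells. Haemoglobin and Alas2 transcripts gave 1 UMI in each marked class. Genes known from naive conventional CD4 T cells, without the marker genes and with some also on the quiescence list, were higher in marked cells, 4 of 7 in control and 3 of 4 in rescued, with Actn1 at 0.93 and 1.93, and Foxp3 in the same cells was at the levels given above. The part of conventional T cells among the marked cells was not tested.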

How the data were processed

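Splenic and lymph node GFP+ Treg cells were profiled with 10x Chromium 3′ v3 chemistry, 1 library per genotype. The submitters' processing notes name Cell Ranger 3.0 and Seurat 3.1.5, with GRCm38 (mm10) plus a tdTomato sequence. The authors deposited raw UMI counts of 16098 genes in 7024 cells, and cells were assigned to libraries by their deposited names. A second deposited table of normalized values was not used. Most deposited cells exceed the mitochondrial limit that the study's methods state, and no further cell was removed. No doublet caller was applied in the values reported, and an alternative left out the cells with the highest Scrublet scores. Marked cells were those with at least 3 UMIs of the 3 marker genes. The members and the 22 gene lists were chosen with earlier results of these data known. Of 301 listed genes 285 were in the table.

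UMIs were summed per population and scaled to CPM. A gene was compared where at least 20 UMIs were expected in the smaller population, and counted as higher or lower past 1.5-fold. The expected number came from the gene's UMIs in both populations together, so genes held mostly by the larger population passed more readily. Named genes were the 12 highest and 12 lowest ratios among genes with at least 50 expected UMIs, without the marker, mitochondrial, ribosomal, immunoglobulin and T cell receptor genes, plus Foxp3, Ikzf2, Il2ra and tdTomato, and the listed genes. The 95% intervals were exact. For shares of cells with a UMI, cells were thinned to 2000 UMIs, and the 4, 61, 0 and 33 shallower cells of the control marked, control other, rescued marked and rescued other cells were left out. Neighbours were searched over 12188 genes found in more than 10 cells. The scripts were tested on simulated data. Python 3.11.15, numpy 2.4.6, scipy 1.17.1, scikit-learn 1.9.0, scanpy 1.11.5 and biopython 1.88 were used. Library totals were 15446201 UMIs in control and 15537656 in rescued. Some genes count in their lists and their own values are not reported here.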

Additional observations from a re-analysis of the deposited data

Results flagged for a closer look

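Among 208 named and listed genes compared in both libraries, 5 had a ratio of marked over other cells on opposite sides of 0 in the 2 libraries, with both counting intervals clear of 0. The difference between the libraries was not tested, since each group is 1 library. Ago2, a small RNA effector, was at 0.28 in control (0.13 to 0.43) and −0.53 in rescued (−0.97 to −0.13). The interferon-induced GTPase Gbp3 was at −0.20 (−0.40 to −0.01) and 0.54 (0.29 to 0.78). Id3, an inhibitor of E proteins, was at −0.15 (−0.26 to −0.05) and 0.28 (0.06 to 0.50). Ly6e, a relative of the marker Ly6c1, was at 0.14 (0.10 to 0.19) and −0.18 (−0.26 to −0.09). The intermediate filament gene Vim was at −0.15 (−0.23 to −0.08) and 0.19 (0.08 to 0.30).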

How the results depend on the processing

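The quiescence and activation medians of the 3 comparisons kept their direction under the 9 alternatives, and the medians of the other lists were not recomputed. With a marker sum of 2 or more the shares of marked cells were 23.4% in control and 4.69% in rescued, and the quiescence median in rescued was 0.59. With a sum of 5 or more the shares were 9.14% and 1.95%, the quiescence median between the marked classes was −0.13, 203 genes passed 1.5-fold there against 343, and Lgals1 reversed from 0.97 to −0.12. With Igfbp4 and Dapl1 alone, at a sum of 2 or more in place of 3, the control share was 12.7%. Without cells over 10% mitochondrial UMIs the control share was 18.9%, the quiescence median was 0.67 in rescued and −0.49 between the marked classes. With at least 50 UMIs expected, where fewer genes are compared, 532, 233 and 89 genes passed 1.5-fold in the 3 comparisons, against 978, 640 and 343. The causes of the other moves were not tested. S100a4 between the marked classes was at 1.27 with Igfbp4 and Dapl1 alone and at 3.93 without the cells of highest Scrublet score, against 2.32. S100a6 fell below the limit of expected UMIs with a sum of 5 or more and with Igfbp4 and Dapl1 alone. In cells with sums of 5 to 9 it was at 118 CPM in rescued and 28.0 CPM in control. With 10 or more it was at 48.3 and 25.6 CPM, so the gap was smaller than in the whole marked class. Of the values of single genes, 91 moved beyond their counting interval and 652 did not. No paired analysis was possible because neither genotype has a second library. The depth of 118 rescued marked cells limits the genes that can be compared to 5002 of 16098.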
